A study of Homo sapiens with 9 samples.

Results

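The genes described here are 10 human small noncoding RNA genes, selected on their overlap of 1 nt or more with a seCLIP peak of the RNA helicase DHX34. They are the box H/ACA snoRNAs SNORA52, SNORA2C and SNORA60, the scaRNA SCARNA5, the vault RNA VTRNA1-2, and the microRNA (miRNA) precursors MIR942, MIR610, MIR1291, MIR4449 and MIR4729. GENCODE release 44 holds 6983 genes of these kinds (miRNA, snoRNA, scaRNA, snRNA and miscellaneous RNA), of which 14 lay under a peak, and the 10 are among those 14. They were covered by 9 of the 2261 peaks of the deposited list, because SNORA2C and MIR1291 overlap each other and share a peak. The overlap chose the genes, so it is given as a description with no test.

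In seCLIP (single-end enhanced crosslinking and immunoprecipitation), UV light ties proteins to RNA in direct contact with them, and the RNA pulled down with 1 protein is sequenced. All libraries came from UV-treated HEK293T cells, a human embryonic kidney line. There were 5 anti-GFP libraries from 1 clone whose DHX34 carries GFP and FLAG, and 4 libraries from cells with no tag, labelled as anti-GFP and as input. The data are a single list with the chromosome, start and end of each peak and a whole number from 1 to 4 in its last column, whose meaning is not given. It holds no strand, no read number and no value per library, so the depth behind a peak is unknown and no spread between libraries can be set beside a value. In the text below, 5′ and 3′ refer to the annotated strand of the small RNA, and positions count from 1 at its 5′ end.

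DHX34 is a DExH-box helicase known from nonsense-mediated mRNA decay. The paper that reported these peaks also found it associated with the spliceosomal C complex. It placed the peaks largely in exons and introns, many of them across splice junctions. Box H/ACA snoRNAs guide the conversion of uridine to pseudouridine in ribosomal RNA. They fold into a pair of hairpins joined by a hinge with the H box (ANANNA) and end in an ACA box, and most of them are cut out of the introns of host genes. scaRNAs guide pseudouridylation or, in the box C/D type, ribose methylation of spliceosomal snRNAs in Cajal bodies. miRNA precursors are hairpins from whose stem short mature RNAs are cut, often also from introns, whereas vault RNAs are short transcripts of RNA polymerase III that bind the vault particle.

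Among the classes, 3 of 214 annotated H/ACA snoRNA genes (named SNORA) lay under a peak (1.40%), and all 3 are members. A peak covered 1 of the 5 genes named VTRNA and annotated as miscellaneous RNA (20%). Of these 5, VTRNA2-2P and VTRNA3-1P are pseudogenes by name, and a vault RNA gene annotated under another type was not counted. Also covered were 2 of 49 scaRNA genes (4.08%) and 7 of 1879 miRNA genes (0.373%). Over all small noncoding RNA genes the share was 0.200%. No box C/D snoRNA gene (named SNORD), the class that guides ribose methylation, lay under a peak (0 of 313 genes, which allows a share of up to 0.958%, for counting error only). The same held for the snoRNA genes with other names (0 of 415, up to 0.723%) and for snRNA genes (0 of 1901, up to 0.158%). Of the other miscellaneous RNA genes 1 of 2207 did (0.0453%). These shares count genes whether or not HEK293T cells express them, and the rule itself chose the members from the covered genes. The authors also dropped reads that mapped to several places or to transposable elements. The part of this filter in the counts of 0 was not tested. The paper likewise detected no snRNAs by seCLIP, which it ascribes most likely to the RNase treatment. Its RNA immunoprecipitation did enrich U5 snRNA.

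The sequences of 8 members are shown to make visible which part of each small RNA the peak takes. Each run joins the gene and its peak on GRCh38, on the strand of the gene, with the bases under the peak in capitals. The genes begin at the first base, except for MIR610 (bases 55 to 150) and MIR4729 (bases 31 to 102), where the peak begins first. The SNORA52 run lies at chr11:811681-811864 (plus strand, gene from base 1 to 134), SNORA2C at chr12:48654335-48654518 (minus strand, 1 to 137), SNORA60 at chr20:38449370-38449565 (plus, 1 to 134), SCARNA5 at chr2:233275727-233276002 (plus, 1 to 276) and VTRNA1-2 at chr5:140718925-140719085 (plus, 1 to 89). MIR4449 lies at chr4:52712682-52712800 (plus, 1 to 66), MIR610 at chr11:28056761-28056924 (plus) and MIR4729 at chr17:59366053-59366154 (plus).
SNORA52: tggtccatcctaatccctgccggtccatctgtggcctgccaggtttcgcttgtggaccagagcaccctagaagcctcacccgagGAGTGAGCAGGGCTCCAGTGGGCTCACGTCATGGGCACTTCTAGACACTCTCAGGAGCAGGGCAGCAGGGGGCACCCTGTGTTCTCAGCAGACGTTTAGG
SNORA2C: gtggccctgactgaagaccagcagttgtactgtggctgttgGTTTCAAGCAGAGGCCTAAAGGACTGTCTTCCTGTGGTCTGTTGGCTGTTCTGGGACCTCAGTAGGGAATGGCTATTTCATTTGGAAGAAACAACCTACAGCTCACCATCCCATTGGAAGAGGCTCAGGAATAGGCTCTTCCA
SNORA60: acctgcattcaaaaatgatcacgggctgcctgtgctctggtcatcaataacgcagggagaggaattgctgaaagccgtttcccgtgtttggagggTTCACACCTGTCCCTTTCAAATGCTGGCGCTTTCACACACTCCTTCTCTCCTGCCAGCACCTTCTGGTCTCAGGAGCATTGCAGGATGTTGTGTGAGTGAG
SCARNA5: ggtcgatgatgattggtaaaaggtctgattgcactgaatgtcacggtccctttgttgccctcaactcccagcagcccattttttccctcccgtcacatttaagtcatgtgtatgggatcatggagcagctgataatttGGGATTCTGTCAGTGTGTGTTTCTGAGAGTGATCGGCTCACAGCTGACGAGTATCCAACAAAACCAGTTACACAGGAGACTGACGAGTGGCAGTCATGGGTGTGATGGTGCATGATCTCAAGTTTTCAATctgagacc
VTRNA1-2: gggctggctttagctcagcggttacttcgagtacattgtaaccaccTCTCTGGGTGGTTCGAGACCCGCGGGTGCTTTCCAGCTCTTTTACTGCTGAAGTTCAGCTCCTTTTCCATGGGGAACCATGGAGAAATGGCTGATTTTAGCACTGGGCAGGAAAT
MIR4449: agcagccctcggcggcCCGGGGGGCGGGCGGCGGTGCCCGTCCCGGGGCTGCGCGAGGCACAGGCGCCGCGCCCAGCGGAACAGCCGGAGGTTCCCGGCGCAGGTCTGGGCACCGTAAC
MIR610: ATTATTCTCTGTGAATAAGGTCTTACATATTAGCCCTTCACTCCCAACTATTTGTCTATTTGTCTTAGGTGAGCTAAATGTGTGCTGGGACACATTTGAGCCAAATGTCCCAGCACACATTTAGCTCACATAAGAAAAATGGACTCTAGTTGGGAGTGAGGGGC
MIR4729: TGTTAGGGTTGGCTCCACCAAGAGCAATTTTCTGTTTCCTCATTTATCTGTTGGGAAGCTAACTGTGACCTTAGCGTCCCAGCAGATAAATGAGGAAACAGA

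The mature miRNAs of the precursors, where the RefSeq table (GRCh38.p14) holds them, are shown with the seed, bases 2 to 8, in capitals. A seed is the stretch by which a miRNA pairs with its targets. No seed was shared between these 5 mature RNAs. The table gave a hairpin for 4 of the 5 precursors (not for MIR942) and mature RNAs for 4 (not for MIR4729).
hsa-miR-942-5p: uCUUCUCUguuuuggccaugug
hsa-miR-942-3p: cACAUGGCcgaaacagagaagu
hsa-miR-610: uGAGCUAAaugugugcuggga
hsa-miR-1291: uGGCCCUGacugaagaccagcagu
hsa-miR-4449: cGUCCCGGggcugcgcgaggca

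The peaks lay over the 3′ part of most of the small RNAs and ran on into the flank. The 3′ end of the gene was under the peak in 9 of the 10 members (the exception was SCARNA5), the 5′ end in 2 (MIR610 and MIR4729). In 8 members the peak began inside the gene, and in 8 it ran past the 3′ end. The median share of the gene under the peak was 50.9% (range 29.1 to 100%, SD over the members 25.4 percentage points, n = 10 genes). The median share of the peak inside the gene was 49.3%. SNORA2C and MIR1291 share a peak, so these counts and medians are over genes and not over separate peaks. The authors extended each read to a fixed length of 100 nt, and the peaks were 100 to 164 nt wide, so a peak can run past the end of the RNA that gave its reads. The part of this extension in the flanks was not tested.

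**Figure D1:**
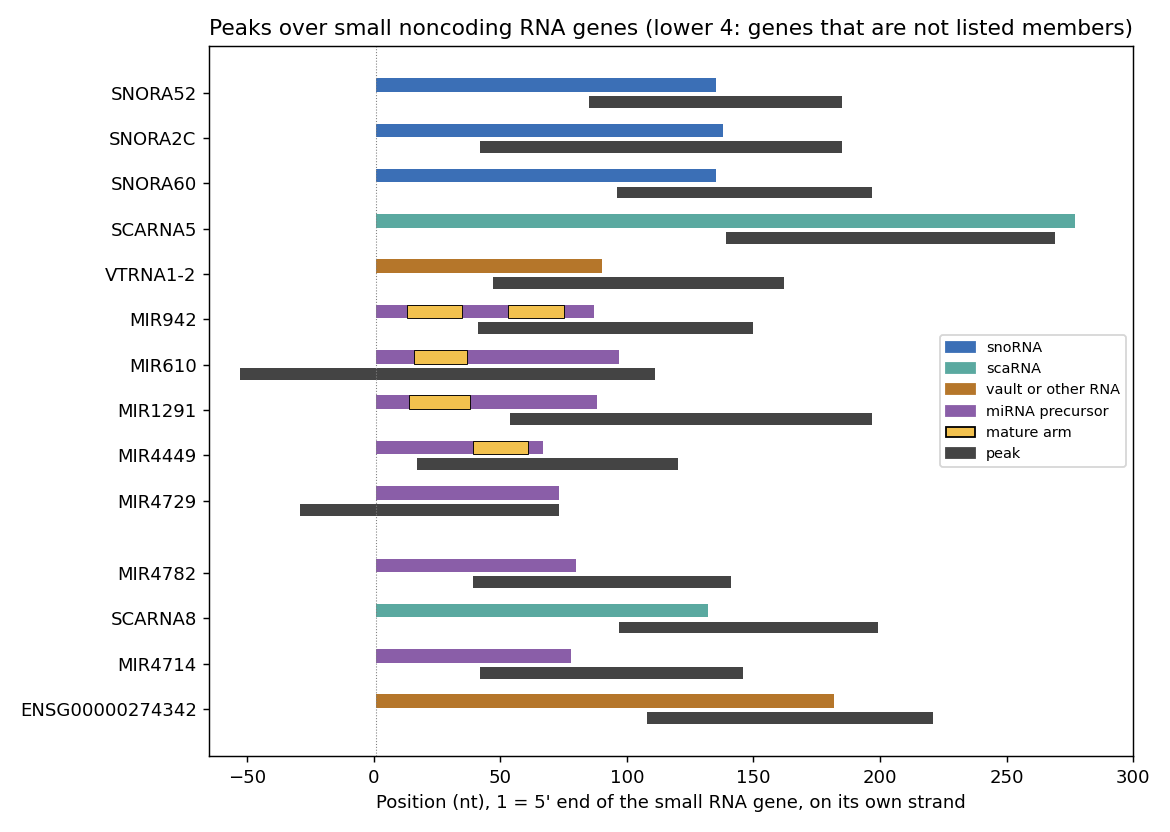
Each small RNA gene (colored bar) with its peak (dark bar below it), in nt from the 5′ end of the gene on its own strand, with mature miRNA arms in yellow. Most peaks begin inside the gene and end beyond its 3′ end, with SCARNA5, MIR610 and MIR4729 as exceptions among the 10 members, and the lower 4 genes, which are not listed members, show the same offset.

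The H/ACA snoRNAs were considered first. SNORA52 (ENSG00000199785.1, chromosome 11, 811681 to 811814, plus strand, 134 nt) had a peak of 100 nt from 811765 to 811864. It covered positions 85 to 134 of the RNA (37.3%) and 50 nt of the flank. In the predicted minimum free energy fold (ViennaRNA, -48.9 kcal/mol) SNORA52 formed the pair of hairpins known for its class, with the 3′ hairpin at positions 60 to 134 and its loop at 98 to 101. The peak therefore began in the upstream arm of the 3′ hairpin, 26 nt after the start of an ANANNA match at the hinge (positions 59 to 64), and it took in the ACA box at 129 to 131.

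SNORA60 (ENSG00000199266.1, chromosome 20, 38449370 to 38449503, plus strand, 134 nt) had a peak of 101 nt from 38449465 to 38449565. Positions 96 to 134 (29.1%) and 62 nt of the flank were covered. The fold placed the 3′ hairpin at positions 66 to 132 with its loop at 100 to 103, so the peak began just before this loop. The ANANNA match at the hinge (58 to 63) lay upstream of the peak and the ACA at 130 to 132 within it. In SNORA52 and SNORA60 alike, the 5′ hairpin lay wholly outside the peak.

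SNORA2C (ENSG00000221491.2, chromosome 12, 48654382 to 48654518, minus strand, 137 nt) had a wider peak of 143 nt, from 48654335 to 48654477. It covered positions 42 to 137 (70.1%) and 47 nt of the flank. The 5′ hairpin was predicted at positions 3 to 57 with its loop at 27 to 33 and the 3′ hairpin at 62 to 137. This peak thus began in the downstream arm of the 5′ hairpin and held the ANANNA match at the hinge (59 to 64), the whole 3′ hairpin and the ACA at 132 to 134. As a background for these letters, searched on the RNA strand, an ACA with 2 to 4 nt after it was found in 158 of the 214 SNORA genes (73.8%). An ANANNA that began within 10 nt of the end of the last but 1 predicted domain was found in 121 (56.5%).

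SCARNA5 (ENSG00000252010.1, chromosome 2, 233275727 to 233276002, plus strand, 276 nt) is a long scaRNA, and its peak of 130 nt (233275865 to 233275994) lay wholly inside the gene. Positions 139 to 268 were covered (47.1%), that is, the downstream part of the RNA to within 8 nt of its 3′ end. The RNA carried the letters of the box C/D class near its ends, TGATGA (C box) at positions 7 to 12 and CTGA (D box) at 269 to 272. The peak ended at the base before this CTGA. The pair of boxes, searched as TGATGA in the first 20 nt together with CTGA in the last 12 nt, was found in 5 of the 49 scaRNA genes (10.2%). CTGA is short, and 7 copies of it lay in SCARNA5, of which 129 to 132 was the last to precede the peak. H and ACA boxes were not placed in SCARNA5. Whether the RNA also holds a part of the H/ACA class, and whether the peak covers it, was not examined. The fold (-88.2 kcal/mol) closed the RNA end to end with 3 hairpin loops, at 99 to 105, 165 to 170 and 208 to 215, and the peak covered the latter 2.

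VTRNA1-2 (ENSG00000202111.1, chromosome 5, 140718925 to 140719013, plus strand, 89 nt) had a peak of 115 nt from 140718971 to 140719085. It covered positions 47 to 89 (48.3%) and 72 nt downstream. The peak began 10 nt before the GTTCGA at positions 57 to 62, the core letters of the B box, an internal promoter element of RNA polymerase III. GTTCGA was present in 3 of the 5 genes named VTRNA that were counted above (60%), as was TTTT in the last 8 nt. The 5 include VTRNA2-2P and VTRNA3-1P, pseudogenes by name. In VTRNA1-2 TTTT, the kind of T run at which this polymerase stops, began at position 86. Further TTTT runs began 20 and 52 nt after the gene end, also under the peak.

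Close copies of these RNAs had no peak. VTRNA1-1 and VTRNA1-3, at 7598 and 7073 nt from the nearest peak, were identical to VTRNA1-2 at 81 (91.0%) and 79 (88.8%) of its 89 bases. The longest identical run between the part of VTRNA1-2 under the peak and either copy was 16 nt. SNORA2A and SNORA2B, which like SNORA2C lie in introns of KANSL2, were identical to it at 78.1% and 75.2% of its bases. Their longest runs shared with the part under the peak were 15 and 12 nt. The authors kept only reads with a unique position, and the part of that filter in these absent peaks was not tested.

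Among the miRNA precursors, the peaks fell into a group that covered the 3′ part of the hairpin and a group that covered it from end to end. MIR942 (ENSG00000215930.1, chromosome 1, 117094643 to 117094728, plus strand, 86 nt) had a peak of 109 nt from 117094683 to 117094791. It covered positions 41 to 86 (53.5%) and 63 nt of the flank. The peak began between both mature arms, so that it held all 22 nt of miR-942-3p (positions 53 to 74, 12 nt after the peak began) and 0 of the 22 nt of miR-942-5p (13 to 34).

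MIR4449 (ENSG00000264585.1, chromosome 4, 52712682 to 52712747, plus strand, 66 nt) had a peak of 103 nt from 52712698 to 52712800, over positions 17 to 66 (75.8%) and 53 nt of the flank. The peak held all 22 nt of miR-4449, on the 3′ arm at positions 39 to 60. This precursor was the most GC-rich of the members folded, at 86.4%.

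MIR1291 (ENSG00000281842.2, chromosome 12, 48654444 to 48654530, minus strand, 87 nt) shares 75 nt with SNORA2C, and its mature miRNA is cut from bases that are also positions 2 to 25 of the snoRNA. Under the shared peak lay positions 54 to 87 of the precursor (39.1%) and 0 of the 24 nt of miR-1291 (14 to 37). As the sequences show, the capitals begin after the mature miRNA and span the rest of the snoRNA. A list without reads cannot tell which of the overlapping RNAs, or their common host transcript, gave the peak.

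MIR610 (ENSG00000207874.1, chromosome 11, 28056815 to 28056910, plus strand, 96 nt) was covered whole, by a peak of 164 nt from 28056761 to 28056924 that began 54 nt upstream and ended 14 nt downstream. All 21 nt of miR-610 lay under it. MIR4729 (ENSG00000263857.1, chromosome 17, 59366083 to 59366154, plus strand, 72 nt) was also covered whole, by a peak of 102 nt from 59366053 to 59366154 that began 30 nt upstream and ended on the last base of the precursor.

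These fully covered precursors had long stems. MIR610 was predicted to pair 83.3% of its bases, with 24 base pairs stacked without a break, and MIR4729 86.1%, with 26. Over the 1562 precursors of the RefSeq table the medians were 71.6% and 9 base pairs. A lower paired share than that of MIR610 was found in 91.7% of the precursors, and than that of MIR4729 in 95.8%. The corresponding values were 26.6% for MIR1291 (66.7% paired) and 54.7% for MIR4449 (72.7% paired). When the MIR610 peak was folded as a whole, its hairpin reached beyond the annotated precursor, from base 33 to base 164 of the peak, with 65 base pairs in the peak. The MIR4729 peak ends with the precursor and holds no 3′ flank, so the same comparison could not be made for it. MIR942, also covered in part, was not folded. Its mature arms of 22 nt, as printed above, are complementary to each other over nearly their whole length. Long stems were therefore not limited to the fully covered members. With 2 precursors of each kind folded this is a description, and whether pairing goes with coverage was not tested.

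In the 7 folded members that the peak covered in part, the share of paired bases under the peak was above that of the other bases in 4 and below it in 3. It was 66% under the peak and 60.7% elsewhere in SNORA52, 69.2% and 57.9% in SNORA60, 68.5% and 61.0% in SCARNA5, and 65.1% and 56.5% in VTRNA1-2. The order was turned in SNORA2C (63.5% and 70.7%), MIR1291 (61.8% and 69.8%) and MIR4449 (72% and 75%). These folds thus show no common direction, and those of SNORA2C and MIR1291, which share a peak, are not separate cases.

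**Figure D2:**
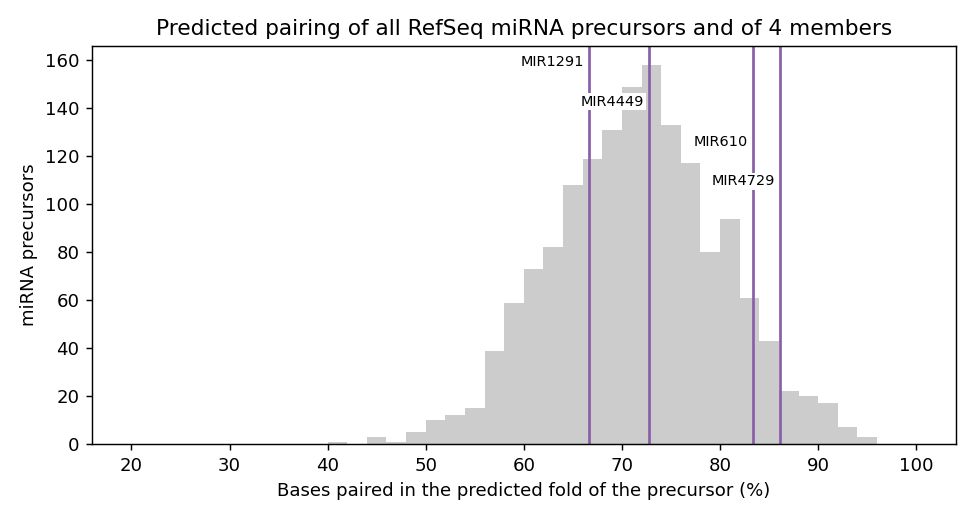
Share of bases paired in the predicted fold, for the 1562 miRNA precursors of the RefSeq table (grey, number of precursors per bin) and for 4 members (lines). The lines of MIR610 (83.3%) and MIR4729 (86.1%), which the peaks covered from end to end, lie to the right of those of MIR1291 (66.7%) and MIR4449 (72.7%), which were covered in part. MIR942, also covered in part, was not folded and has no line.

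The host genes were examined next. A gene on the same strand contained 9 of the 10 members. In each of the 9 the member and its peak lay inside 1 intron of the transcript used (MANE Select, or the canonical one). How many of all small noncoding RNA genes lie in such introns was not counted, so nothing is read from the 9. SNORA2C and MIR1291 share an intron and a peak. SNORA52 lies in intron 3 of RPLP2 (5 exons), which encodes an acidic protein of the large ribosomal subunit, with 35 nt between the upstream exon and the snoRNA. The intron is 889 nt long, and the peak ended 670 nt before the next exon. SNORA2C and MIR1291 lie in intron 9 of KANSL2 (10 exons, 765 nt), a subunit of the NSL chromatin complex, and their peak lay 463 nt from the upstream and 159 nt from the downstream exon. SNORA60 lies in intron 4 of SNHG11 (6 exons, 1605 nt), a long noncoding snoRNA host gene, and its peak lay 734 nt from the upstream and 770 nt from the downstream exon. SCARNA5 lies in intron 9 of ATG16L1 (18 exons, 2789 nt), a gene of autophagy, at 1086 and 1573 nt.

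MIR942 lies in intron 18 of TTF2 (23 exons, 2407 nt), a transcription termination factor, and MIR4729 in intron 2 of YPEL2 (5 exons), which is 34800 nt long. The MIR4729 peak was 12526 nt from the nearer exon. MIR4449 lies in intron 1 of the long noncoding RNA gene DANCR (4 exons), the shortest of these introns at 296 nt, and its peak ended 23 nt before exon 2. The same intron is annotated in LINC01618, and 88 nt of the peak also lay on an exon of ENSG00000286161, a long noncoding gene of the opposite strand. VTRNA1-2, which as a vault RNA has a promoter of its own, lies in intron 1 (20554 nt) of the long noncoding gene ENSG00000292256. MIR610 had no host on its own strand. On the opposite strand it lies in intron 13 of KIF18A (17 exons), a mitotic kinesin, and with no strand in the list a peak on the KIF18A pre-mRNA cannot be told apart from one on MIR610.

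**Figure D3:**
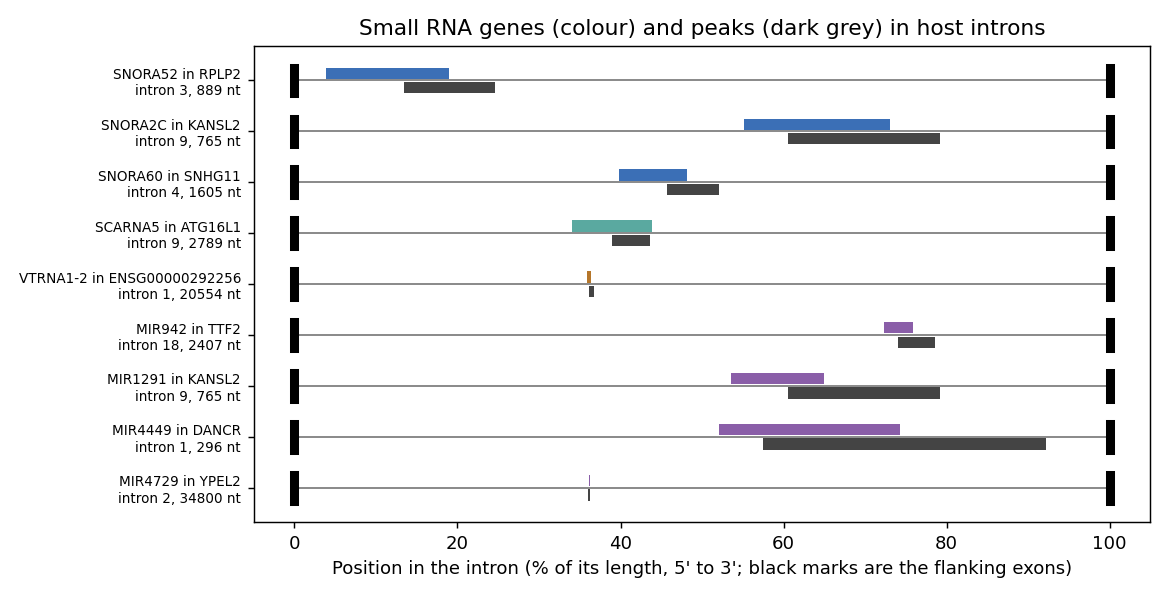
Place of 9 members (color) and their peaks (dark grey) in the host intron, in percent of its length from 5′ to 3′, with the flanking exons as black marks. All peaks lie between the exons, with the MIR4449 peak nearest to one, 23 nt before exon 2 of the 296 nt intron.

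Each host held 1 peak, that over its small RNA. Of all small noncoding RNA genes, 0.200% lay under a peak. The hosts contain another 7 such genes on the same strand, and 0 of the 7 were under a peak, which is near that share. They were SNORA2A and SNORA2B in KANSL2, SNORA71E in SNHG11 (1250 nt from the nearest peak), SCARNA6 in ATG16L1 (12682 nt), SNORA26 in DANCR (449 nt), and VTRNA1-1 and VTRNA1-3. By the exons of all transcripts, 3 of the 9 member peaks touched a host exon, beside 31.2% of the 2041 peaks in protein-coding or long noncoding genes (exons of any such gene). These were the peaks on SNORA52 (75 nt on an exon), SNORA60 (101 nt) and MIR4449 (103 nt). A transcript with an exon over the small RNA itself was annotated in 1 of 8 transcripts of RPLP2, 6 of 53 of SNHG11 and 1 of 14 of DANCR. With the exons of 1 transcript per gene, 0 of the 9 member peaks touched a host exon. Counting the exons of any gene on either strand, as for all peaks, 1 of the 9 did (MIR4449, 88 nt on the opposite-strand ENSG00000286161), beside 25.3% of the 2041 peaks.

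The value in the last column of the list was 1 for 8 of the 9 member peaks and 3 for the SCARNA5 peak. A value of 2 or more was held by 1 of the 9, beside 2.30% of all 2261 peaks (52 peaks), and a value of 3 by 4 peaks of the list. The rule did not use this number, and nothing is read from a share that rests on 1 peak. The member peaks had a median width of 109 nt (quartiles 102 and 130 nt), and all peaks had one of 103 nt (102 and 107 nt). At most 110 nt wide were 5 of the 9 member peaks and 78.3% of all peaks. The SNORA52 peak, at 100 nt, was at the lowest width of the list. The widest, that of MIR610, was wider than 93.1% of all peaks, and those of SNORA2C and SCARNA5 were wider than 90.7% and 88.0%.

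**Figure D4:**
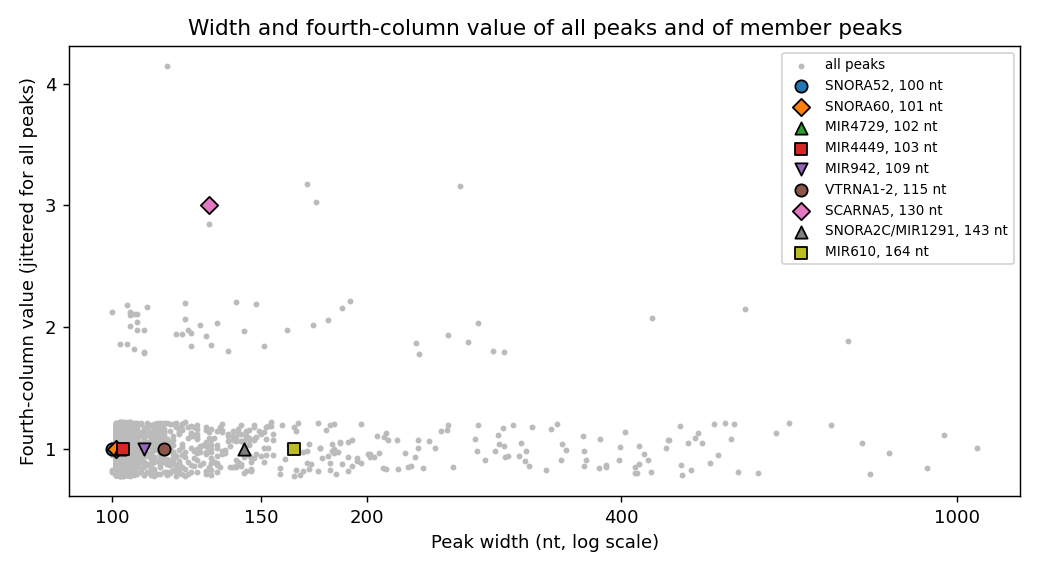
Width (nt, log scale) and last-column value of all 2261 peaks (grey, jittered vertically) and of the 9 member peaks (colored symbols). The SCARNA5 peak (130 nt) has the value 3, and the other 8, from 100 to 164 nt wide, have the value 1.

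Base composition was read on the strand of the small RNA. At positions 6 to 15 from the 5′ edge of the peak, G made up a median of 40% of the bases in the 9 member peaks (mean 36.7%, SD 25 percentage points over the peaks). The 1881 peaks in genes of 1 strand were read on the strand of their protein-coding or long noncoding gene. By that rule the MIR4449 peak, with genes on both strands, would be left out. The MIR610 peak would be read on the strand of KIF18A. For the 1881 peaks the median G share at these positions was also 40% and the mean 37.4%. The members were spread widely around this value. The MIR4449 peak had 80% G in these 10 bases and the VTRNA1-2 peak 60%. MIR4729 had 50% and SCARNA5 30%, and SNORA52 and the peak of SNORA2C and MIR1291 each had 40%. The lowest shares were those of MIR610 (20%), SNORA60 (10%) and MIR942 (0%). Over the whole peak the median share of G was 25.9% in the member peaks and 28.2% in all. The GC content of the member peaks ran from 41.5% (MIR610) to 80.6% (MIR4449).

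A search was made for 3 G-rich hexamers taken from an earlier look at these peaks, GGAGGG, followed by GGGGAG and then by GAGGAG. Read on the strand of the small RNA, they were found in 0 of the 9 member peaks. Of the 1881 peaks, read on the strand of their protein-coding or long noncoding gene, 613 (32.6%) held at least 1. In SNORA60 a GGAGGG ended at the base just before the peak began, as the lower-case letters before its capitals show. No other copy lay in the 20 nt upstream of a member peak. The 9 peaks are few and the hexamers came from this same list, so the 32.6% is no independent background. The difference was not tested, and the paper itself identified no specific binding motif.

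**Figure D5:**
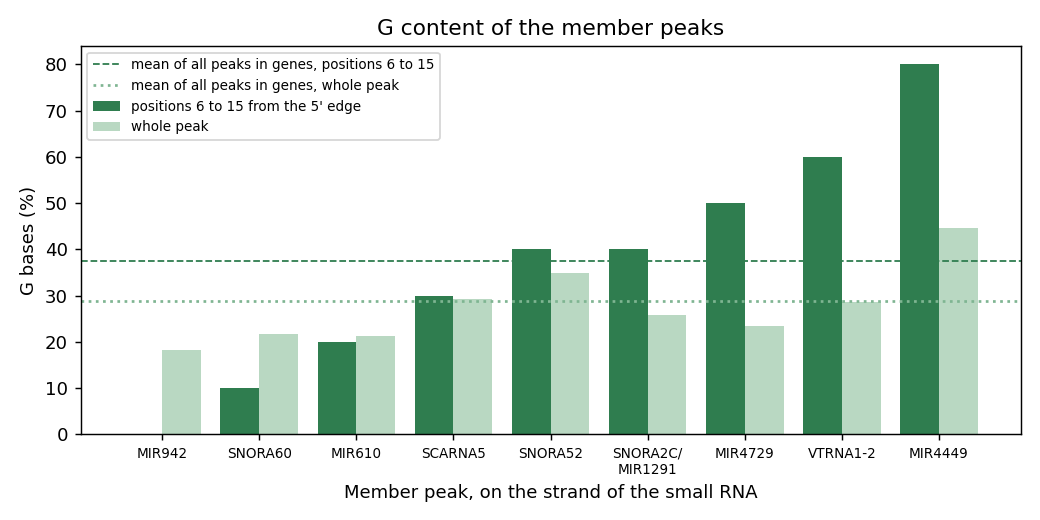
G bases in percent, at positions 6 to 15 from the 5′ edge (dark bars) and over the whole peak (light bars), for the 9 member peaks on the strand of the small RNA. Lines mark the means of the 1881 peaks in genes of 1 strand, read on that strand (37.4 and 28.8%). The edge value runs from 0% in MIR942 to 80% in MIR4449.

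The remaining 4 small RNA genes under a peak showed the same offset, and they are described because the rule did not list them. The peaks on SCARNA8 (131 nt, last-column value 2), MIR4782 (79 nt), MIR4714 (77 nt) and ENSG00000274342 (a miscellaneous RNA gene of 181 nt) began at positions 97, 39, 42 and 108. They ran 67, 61, 68 and 39 nt past the 3′ end. All 4 began inside the gene and ran past its 3′ end, as did 7 of the 10 members. At the edge of the rule, the smallest overlap was 34 nt (MIR1291) among the members and 35 nt (SCARNA8) among the others. The nearest genes without overlap were MIR3609, with 83 nt between gene and peak, and MIR4747, with 88 nt, each with the peak downstream of the precursor.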

How the data were processed

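Per the methods, the authors trimmed adapters (cutadapt), marked molecular identifiers (umi_tools), aligned reads to GRCh38 (bowtie2, versions not given in the sources used here), and dropped duplicates, multiply mapping reads and those in transposable elements. Their macs2 runs set single and pooled tagged libraries against pooled controls, with an extension of 100 nt, and peaks with a −log10 p of at least 10 were joined over replicates. It is assumed here that the deposited bed list holds the joined peaks. From these the authors selected a smaller set, by the reads in a peak and their ratio to those of the surrounding region. A minority of the selected peaks had read support in several replicates. The deposited list is larger than that set and does not mark it, so member peaks may lie outside it. The score in its last column was deposited by the authors without a meaning, and is used only as given.

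Here, peaks were joined to GENCODE release 44 on the same build (minimum overlap 1 nt; 0 peaks ran past a chromosome end; printed starts count from 1). Of several hosts, protein-coding and then shorter genes came first. RNAs were folded with ViennaRNA 2.7.2 at its default settings. miRNAs were matched to RefSeq by symbol. Overlap rules were tested on simulated data. Described were the members, the other small RNA genes of their hosts and the other covered small RNA genes. Members, lists and hexamers were chosen with earlier results of these data known. Groups followed the sample titles. Alternatives were other overlap rules, 1 transcript per host, the central 50 nt, peaks of value 2 or more and, chosen after the data were seen, RefSeq spans and spans widened by 50 nt.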

Additional observations from a re-analysis of the deposited data

How the results depend on the processing

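All 10 members kept a peak with an overlap of at least 10 nt and with RefSeq spans. With at least 50% of the gene under the peak 5 remained (SNORA2C, MIR942, MIR610, MIR4449 and MIR4729). With at least 50% of the peak in the gene, or with the peak's midpoint in it, 5 remained (SNORA52, SNORA2C, SCARNA5, MIR610 and MIR4729). At a last-column value of 2 or more 1 remained (SCARNA5). Of the 14 covered small RNA genes these rules left 6 by the gene, 6 by the midpoint and 2 by the value, and spans widened by 50 nt left the count at 14. Host exons were touched by 0 member peaks with 1 transcript per gene, in place of 3. By exons of any gene on either strand 1 of 9 was (MIR4449), beside 25.3% of the 2041 peaks in genes. The central 50 nt of the peaks covered a median of 18.6% of the gene, in place of 50.9%, since less sequence was compared. The intron count (9) and the precursors with a mature arm covered (3) kept their values. The median G share was 40% at the edge and 25.9% over the whole peak. These are different quantities, and the SD of the edge share over peaks was 25 percentage points, so the comparison does not show that the edge value is stable. The list has no reads, so no library could be left out and an absent peak does not show that an RNA was not bound. No paired analysis was possible because the list holds no value per library.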
